A study of Mus musculus with 4 samples.

Results

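The Hippo pathway genes described here were Tead1, Tead2, Tead3, Tead4, Yap1, Wwtr1, Lats2, Amotl2, Ctgf (also named Ccn2) and Cyr61 (also named Ccn1). They were chosen by name, with earlier results of these data known. Every probe set annotated to 1 of these 10 genes alone was taken. This gave 23 of the 45037 probe sets on the arrays and 10 of the 18193 genes with a probe set of their own. One further probe set, annotated to Lats2 together with the neighbouring Xpo4, was left out. RNA came from the mouse embryonic stem (mES) cell line E14, kept in medium with serum and leukaemia inhibitory factor. The arrays compared 2 samples transfected with pSuper.puro as a mock (control RNAi) with 2 samples transfected with a plasmid for an shRNA that targets Zfp322a (Zfp322a RNAi), and per the labels all were selected with puromycin for 3 days. The question put to the Hippo genes was whether their RNA changed once that of Zfp322a, the gene of a zinc finger protein, had been lowered. The sources used here do not say which shRNA the array samples carried, or whether samples under one label were grown as separate cultures, so the p-values measure only the spread between these samples, which may be technical.

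In the Hippo pathway a kinase chain ends in the LATS kinases, which phosphorylate the coactivators YAP (Yap1) and TAZ (Wwtr1) and so hold them in the cytoplasm or mark them for degradation. Unphosphorylated YAP and TAZ enter the nucleus and act through the DNA-binding TEAD factors, and some of their targets, Lats2 and Amotl2 among them, encode inhibitors of YAP. In the early mouse embryo Tead4 and YAP are known for switching on Cdx2 and Gata3 in the outer cells that form the trophectoderm, while YAP is kept out of the nucleus in the inner cells from which mES cells are derived.

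TEAD factors recognise a short core, GGAATG, which reads CATTCC on the opposite strand, and the promoter sequences below show where these letters stood in genes that were measured. RefSeq promoter windows of assembly GRCm38.p6, which run from 250 bases before to 50 bases after an annotated transcription start, were found for 7 of the 10 genes. Tead1, Tead4 and Ctgf are named only. The core was present on either strand in 6 of these 7, in 16.6% of 27025 genes with a window and in 14.7% of 32851 windows. A longer form, GGAATGT, was searched after the first matches had been seen, and stood in 4 of the 7 against 4.47% of genes. Of 20 other YAP target genes listed further below, 14 had a window and 5 of these held the core. A match is a stretch of letters and was not tested for binding.
The stretches below are 30 bases long, are written on the strand of the gene and carry the core in capitals.
Yap1 (chr9:8004720-8004749, minus strand): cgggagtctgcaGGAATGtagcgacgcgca
Wwtr1 (chr3:57576029-57576058, minus strand): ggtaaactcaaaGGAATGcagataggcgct
Lats2 (chr14:57746102-57746131, minus strand): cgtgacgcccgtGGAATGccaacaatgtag
Amotl2 (chr9:102717727-102717756, plus strand): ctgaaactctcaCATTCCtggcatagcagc
Cyr61 (chr3:145650071-145650100, minus strand): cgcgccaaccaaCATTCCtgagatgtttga
The core began 141 bases before an annotated start of Yap1, 136 before one of Wwtr1, 65 before one of Amotl2 and 103 before one of Cyr61. In Lats2 it began 5 bases after an annotated start. The start of a window need not be the outermost start of its gene. The Yap1, Wwtr1 and Cyr61 matches lay outside the annotated gene. The Lats2 and Amotl2 matches lay inside the annotated extent of the gene. The Yap1, Amotl2 and Cyr61 matches were of the longer form. Tead3 held 4 matches, 1 of them long, and Tead2 held none. Because Cyr61 is a classical YAP target, the 250 bases before its start (chr3:145649986-145650235, minus strand) are given whole.
Cyr61 promoter: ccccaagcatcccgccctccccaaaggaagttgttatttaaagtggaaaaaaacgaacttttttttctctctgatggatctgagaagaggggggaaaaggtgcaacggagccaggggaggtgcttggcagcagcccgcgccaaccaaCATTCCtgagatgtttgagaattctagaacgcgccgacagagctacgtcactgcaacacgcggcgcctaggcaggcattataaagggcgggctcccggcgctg

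**Figure D1:**
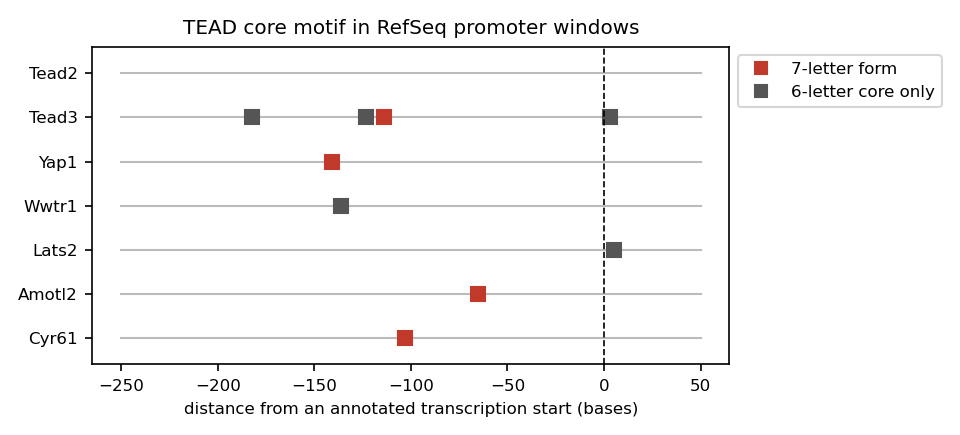
Positions of the TEAD core motif, in bases from an annotated transcription start (x axis), in the RefSeq windows of 7 Hippo pathway genes (y axis), with grey lines for the windows, red squares for the longer form and grey squares for the core alone. The core stood in 6 of the 7 genes, most often before the start, and Tead2 held none.

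RNAi lowered Zfp322a itself, as both of its probe sets showed. The probe set 1439035_at read 8.75 and 8.84 in control RNAi and 7.53 and 7.13 in Zfp322a RNAi, on the log2 scale of the RMA values used throughout. The change was -1.47 ± 0.14 (log2 Zfp322a RNAi minus control RNAi ± SE from limma, n = 2 arrays per group, adjusted p = 0.00220), which left 36.2% of the control level. The probe set 1452374_at fell by 1.87 ± 0.09 (limma adjusted p = 9.35e-04). The array medians lay between 6.07 and 6.11, and arrays correlated at 0.998 within groups and at 0.989 to 0.990 across groups over all probe sets. Markers of mES cells were bright in all samples. The summed linear level of 8 mES cell markers was 53549 to 55053 in control RNAi and 52228 to 52391 in Zfp322a RNAi, and by their brightest probe sets Esrrb alone passed the test (-0.41 ± 0.07, limma adjusted p = 0.0141). Of their dimmer probe sets 1, of Fgf4, passed (-0.35, limma adjusted p = 0.0453).

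Of the 23 probe sets, 11 rose and 2 fell at a limma adjusted p under 0.05, and 10 did not pass. Over all 45037 probe sets the same test called 10.6% higher and 9.47% lower. Tead1, Yap1, Wwtr1, Lats2, Amotl2, Ctgf and Cyr61, 7 genes in all, had at least 1 probe set that rose, Tead4 fell with both of its probe sets, and Tead2 and Tead3 had none that passed. The median change of the 23 probe sets was 0.28, against -0.03 over all probe sets. Because the genes were chosen with earlier results of these data known, these shares and medians do not test the pathway. With each gene read by its brightest probe set alone (the highest by its mean of the 4 arrays), 3 genes rose, 1 fell and 6 did not pass, with a median change of 0.16, against 12.2% of genes higher, 11.5% lower and a median of -0.04 over all 18193 genes. The rises of Tead1, Yap1, Lats2 and Cyr61 thus stood in probe sets that were not the brightest of their gene. Brightness serves here to choose a probe set per gene, to mark dim probe sets and to form summed levels of marker lists. A difference in value between probe sets is not read as a difference in RNA amount, because each has its own probes.

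Knock-down and control arrays stood apart in 15 probe sets that were higher and 6 that were lower in Zfp322a RNAi, where 25.1% and 32.4% of all probe sets stood apart in these directions. With a plain 1.5-fold limit, which the study's methods use without a test, 6 of the probe sets were higher and 1 was lower, against 4.67% and 2.64% of all. The calls need all 4 arrays: once any 1 of them was left out, none of the calls held, here or over all probe sets. In size, the change of a called Hippo probe set then moved by over 1.5 times only for 1426337_a_at of Tead4 (-0.835 to -0.415). No exact permutation test of 1 probe set can go below p = 0.33 with 2 arrays against 2.

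**Figure D2:**
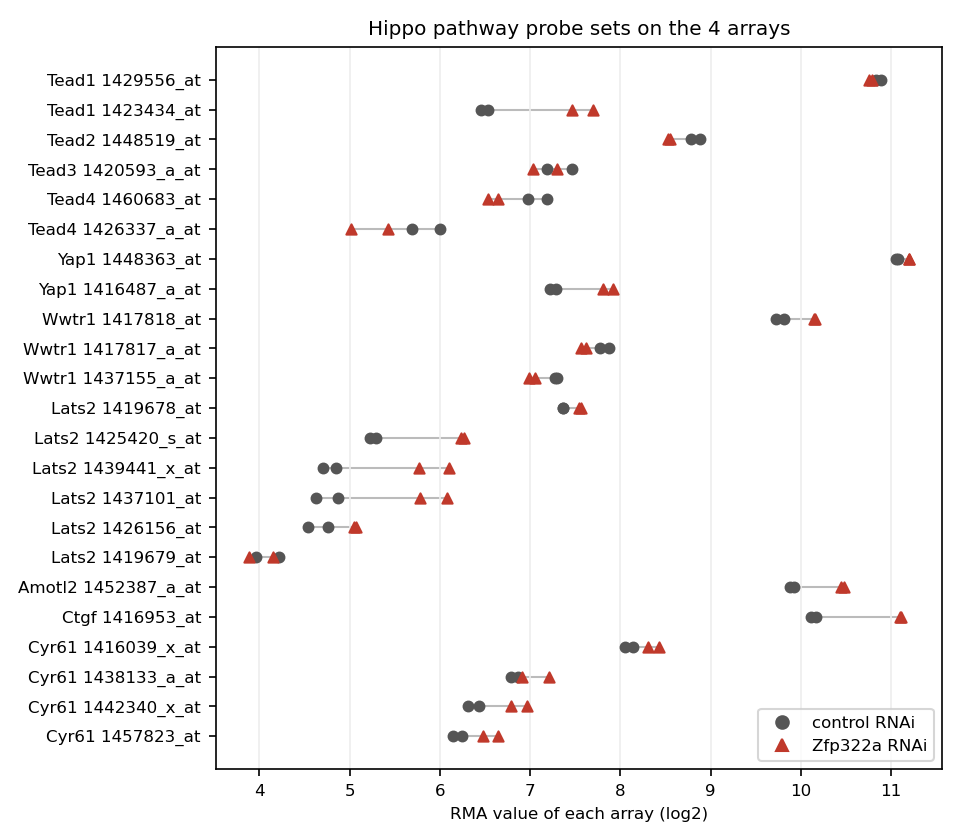
RMA value on the log2 scale (x axis) of each of the 23 Hippo pathway probe sets (y axis, gene and probe set) on each of the 4 arrays, with grey circles for control RNAi, red triangles for Zfp322a RNAi and a thin line joining the lowest and the highest value. The arrays of the groups stand apart in 21 probe sets and overlap in 1 of Tead3 and 1 of Lats2. Over all probe sets, 25.1% stand apart as higher and 32.4% as lower in Zfp322a RNAi.

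Among the TEAD factors, which bring YAP and TAZ to DNA, Tead4 fell and Tead1 rose in 1 of its probe sets. The Tead4 probe set 1460683_at read 6.98 and 7.19 in control RNAi and 6.53 and 6.64 in Zfp322a RNAi. Both knock-down arrays lay below both control arrays, and the change of -0.50 ± 0.10 (limma adjusted p = 0.0192) left 70.7% of the control level. The second Tead4 probe set, 1426337_a_at, read 5.69 and 6.00 in control RNAi and 5.01 and 5.43 in Zfp322a RNAi, a change of -0.63 ± 0.17 (limma adjusted p = 0.0471) that became -0.42 without Zfp322a RNAi replicate 1. Its values lay below the median level of all probe sets, 6.09, on every array, and its knock-down arrays differed more from each other than those of the first probe set.

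Tead1, the TEAD factor best known from muscle and heart, gave unlike readings with its probe sets. The brightest, 1429556_at, read 10.83 and 10.89 in control RNAi and 10.76 and 10.79 in Zfp322a RNAi, and its change of -0.09 ± 0.08 did not pass (95% interval -0.27 to 0.10, limma adjusted p = 0.507). The other, 1423434_at, read 6.46 and 6.53 in control RNAi and 7.70 and 7.46 in Zfp322a RNAi. These arrays were well apart, and the probe set rose by 1.09 ± 0.10, or 2.12-fold (limma adjusted p = 0.00222).

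Tead2, which is expressed from early embryonic stages, had 1 probe set, 1448519_at, with 8.78 and 8.88 in control RNAi and 8.53 and 8.55 in Zfp322a RNAi. The control arrays lay above the knock-down arrays, but the change of -0.29 ± 0.08 missed the threshold narrowly (95% interval -0.48 to -0.10, limma adjusted p = 0.0516). It passed with the arrays quantile-normalized again (limma adjusted p = 0.0340) or with a variance trend (adjusted p = 0.0103). It also passed with dim probe sets left out (limma adjusted p = 0.0152) or with the brightest probe set of each gene alone (adjusted p = 0.0309). It did not pass with the arrays centred (limma adjusted p = 0.0765) or with cross-hybridizing probe sets left out (adjusted p = 0.0528). With a replicate block it did not pass either (limma adjusted p = 0.102), but no probe set of the series did. Tead3, which is known for its expression in the placenta, read 7.19 and 7.47 in control RNAi and 7.03 and 7.30 in Zfp322a RNAi with 1420593_a_at. Its groups overlapped, and the change of -0.17 ± 0.13 did not pass (95% interval -0.49 to 0.16, limma adjusted p = 0.458).

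The coactivators Yap1 and Wwtr1 each rose in 1 probe set. For Yap1, 1416487_a_at read 7.22 and 7.29 in control RNAi and 7.92 and 7.81 in Zfp322a RNAi, a rise of 0.61 ± 0.08, or 1.53-fold (limma adjusted p = 0.00564). The brighter Yap1 probe set, 1448363_at, read 11.06 and 11.08 in control RNAi and 11.20 on both arrays of Zfp322a RNAi. Its groups stood apart in the same direction, but the change was 0.13 ± 0.07 (95% interval -0.05 to 0.31, limma adjusted p = 0.293).

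For Wwtr1, the brightest probe set 1417818_at read 9.73 and 9.81 in control RNAi and 10.16 and 10.15 in Zfp322a RNAi, a rise of 0.39 ± 0.08, or 1.31-fold (limma adjusted p = 0.0195). Its other probe sets ran the opposite way without passing. The probe set 1417817_a_at read 7.77 and 7.88 in control RNAi and 7.57 and 7.62 in Zfp322a RNAi, a change of -0.23 ± 0.08 (limma adjusted p = 0.108). The probe set 1437155_a_at read 7.28 and 7.30 against 7.06 and 6.99, a change of -0.27 ± 0.08 (limma adjusted p = 0.0612). With dim probe sets left out of the fit, both of these passed (limma adjusted p = 0.0379 and 0.0174), so that Wwtr1 then had calls in both directions. With a variance trend only 1437155_a_at of the 2 passed (limma adjusted p = 0.048). Neither passed with the arrays centred or quantile-normalized again. The annotation used here gives each of the 3 probe sets to Wwtr1 alone, and which part of the transcript each one reads was not analysed here.

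Of the genes that encode inhibitors of YAP, Amotl2 rose with its 1 probe set and Lats2 rose in probe sets other than its brightest. Lats2, one of the kinases that phosphorylate YAP and TAZ, had 6 probe sets, of which 4 rose. Averaged over the 4 arrays, each of these 4 lay under the median level of all probe sets. The probe set 1437101_at read 4.63 and 4.87 in control RNAi and 6.08 and 5.78 in Zfp322a RNAi, a rise of 1.18 ± 0.13, or 2.27-fold (limma adjusted p = 0.00328). The probe set 1439441_x_at read 4.85 and 4.70 in control RNAi and 6.10 and 5.77 in Zfp322a RNAi, a rise of 1.16 ± 0.13, or 2.23-fold (limma adjusted p = 0.00310). In both, the knock-down arrays lay well above the control arrays, which were themselves below the median level of all probe sets.

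The Lats2 probe set 1425420_s_at read 5.29 and 5.23 in control RNAi and 6.27 and 6.23 in Zfp322a RNAi, a rise of 0.99 ± 0.08, or 1.99-fold (limma adjusted p = 0.00152). The probe set 1426156_at read 4.76 and 4.54 in control RNAi and 5.05 and 5.07 in Zfp322a RNAi, a rise of 0.41 ± 0.10 (limma adjusted p = 0.0330). The IDs ending in _s_at or _x_at mark probe sets that may also bind other transcripts, and the rises of 1437101_at and 1426156_at do not rest on such probe sets. The brightest Lats2 probe set, 1419678_at, read 7.37 and 7.36 in control RNAi and 7.56 and 7.54 in Zfp322a RNAi. Its groups did not overlap, but the change of 0.19 ± 0.07 did not pass (limma adjusted p = 0.147), though it did with dim probe sets left out (adjusted p = 0.0477). It did not pass with the arrays centred (limma adjusted p = 0.109), quantile-normalized again (adjusted p = 0.148) or with a variance trend (adjusted p = 0.133). The dimmest, 1419679_at, read 3.96 and 4.22 against 3.88 and 4.15, with overlapping groups and a change of -0.08 ± 0.13 (limma adjusted p = 0.746).

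Amotl2, an angiomotin family protein that binds YAP and holds it at cell junctions, had 1 probe set, 1452387_a_at. It read 9.88 and 9.93 in control RNAi and 10.48 and 10.45 in Zfp322a RNAi. The groups were apart by far more than the arrays within them, and the rise was 0.56 ± 0.08, or 1.47-fold (limma adjusted p = 0.00560).

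Ctgf and Cyr61 encode secreted matricellular proteins of one family and are the usual readouts of YAP activity. Ctgf, with the probe set 1416953_at, read 10.11 and 10.17 in control RNAi and 11.10 and 11.11 in Zfp322a RNAi. Among the brightest probe sets of the 10 genes it changed most, with a rise of 0.97 ± 0.08, or 1.95-fold (limma adjusted p = 0.00155). Cyr61 had 4 probe sets, all higher in every knock-down array than in any control array, and 2 of them passed. The probe set 1442340_x_at read 6.31 and 6.43 in control RNAi and 6.79 and 6.97 in Zfp322a RNAi, a rise of 0.51 ± 0.10, or 1.42-fold (limma adjusted p = 0.0159). The probe set 1457823_at read 6.15 and 6.25 against 6.65 and 6.48, a rise of 0.37 ± 0.09, or 1.29-fold (limma adjusted p = 0.0414).

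The brightest Cyr61 probe set, 1416039_x_at, read 8.05 and 8.14 in control RNAi and 8.43 and 8.31 in Zfp322a RNAi, and its change of 0.28 ± 0.09 did not pass (95% interval 0.07 to 0.48, limma adjusted p = 0.0748). It passed with dim probe sets left out (limma adjusted p = 0.0263), with a variance trend (adjusted p = 0.0248) and with brightest probe sets alone (adjusted p = 0.0481). It did not pass with the arrays centred (limma adjusted p = 0.0592) or quantile-normalized again (adjusted p = 0.0700). With a replicate block, where no probe set of the series passed, its limma adjusted p was 0.163. The probe set 1438133_a_at read 6.79 and 6.87 in control RNAi and 7.21 and 6.91 in Zfp322a RNAi. One knock-down array lay close to the controls there, and the change was 0.23 ± 0.12 (limma adjusted p = 0.233). Ctgf and Cyr61 thus pointed the same way in all 5 of their probe sets, 3 of which passed the test. The difference between their changes was not tested.

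**Figure D3:**
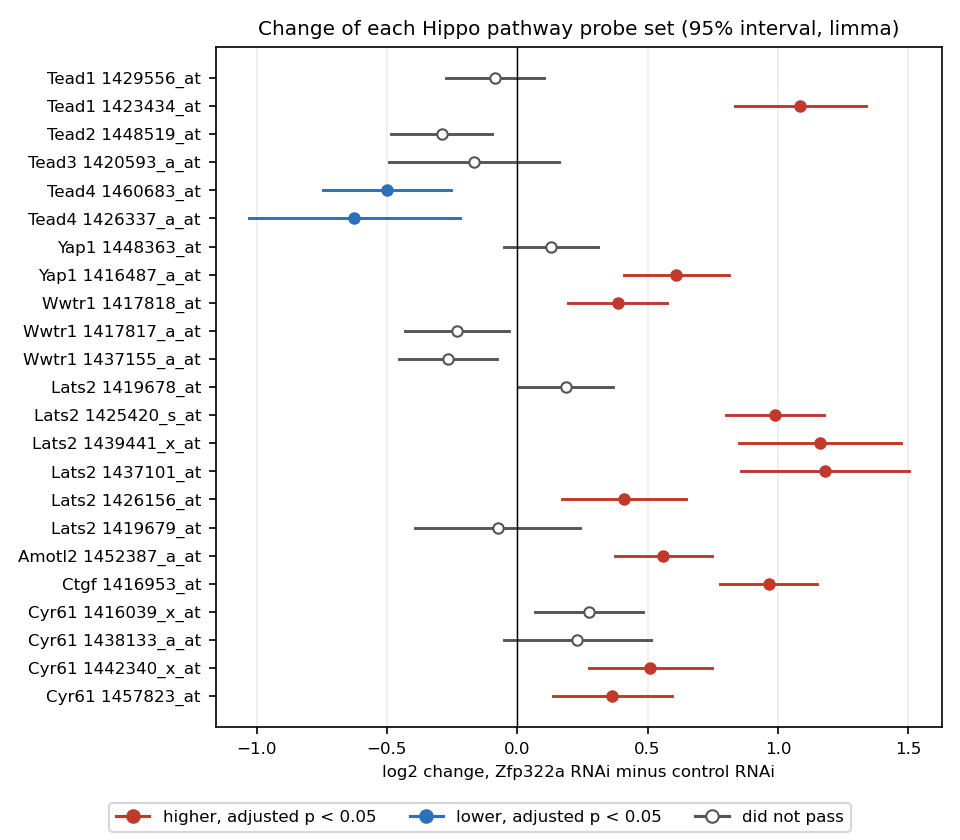
Change of each of the 23 Hippo pathway probe sets (y axis), as log2 Zfp322a RNAi minus control RNAi (x axis), with the 95% interval from limma as a line. Filled red points rose and filled blue points fell at a limma adjusted p under 0.05, and open points did not pass: 11 were higher, 2 (both of Tead4) lower and 10 open.

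The wider pathway was read with 57 further genes in 4 groups, which had 156 probe sets in all. By their brightest probe sets, 15 of the 57 rose, 8 fell and 34 did not pass, with a median change of 0.01. These shares stand beside the 12.2% higher and 11.5% lower over all genes. The 4 groups too were listed with earlier results of these data known. At an unadjusted p under 0.05 in limma, 17.3% of all genes were higher and 19.7% lower. Most rises were in the kinase core and in the YAP target genes, and most falls among the junction scaffolds. Differences between these groups were not tested.

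Of 13 measured genes of the kinase core and its activators, 6 rose, 2 fell and 5 did not pass, with a median change of 0.40. Mob1b, which encodes a coactivator of the LATS kinases, read 7.92 and 7.99 in control RNAi and 9.45 and 9.36 in Zfp322a RNAi, a rise of 1.45 ± 0.08 (limma adjusted p = 0.00105), while its dimmer probe set changed by 0.22 ± 0.10 (adjusted p = 0.186). Lats1, the other LATS kinase, read 8.21 and 8.0 in control RNAi and 9.52 and 9.38 in Zfp322a RNAi, a rise of 1.34 ± 0.10 (limma adjusted p = 0.00150) that its dimmer probe set shared (1.27 ± 0.18, adjusted p = 0.00644). In the brightest probe set of both genes every knock-down array exceeded every control array by more than 1 log2 unit. Sav1, the scaffold of the upstream MST kinases, rose by 0.70 ± 0.08 (limma adjusted p = 0.00378), while its dimmer probe set, whose groups overlapped, changed by 0.02 ± 0.09 (adjusted p = 0.930). Wwc1, which encodes the upstream activator KIBRA, fell by 0.83 ± 0.09 (limma adjusted p = 0.00317), and its second probe set fell too (-0.68, adjusted p = 0.00508), while 2 dim ones did not pass. Taok1, which encodes a kinase that activates the MST kinases, rose by 0.73 ± 0.09 with its brightest probe set (limma adjusted p = 0.00362), but of its 6 dimmer probe sets 2 rose, 3 did not pass and 1 fell by 0.58 ± 0.10 (adjusted p = 0.0121). Nf2, which encodes the tumour suppressor merlin and was named after its value had been seen, was the other gene that fell (-0.42 ± 0.08, limma adjusted p = 0.0170), while its 3 dimmer probe sets did not pass. Over the group, 6 of 35 dimmer probe sets rose and 3 fell.

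Of 13 measured junction and polarity scaffolds, 0 rose by their brightest probe sets, 5 fell and 8 did not pass, with a median change of -0.28. At an unadjusted p under 0.05 in limma, 1 was higher and 8 were lower. Amotl1, a relative of Amotl2, read 8.41 and 8.45 in control RNAi and 7.89 and 7.94 in Zfp322a RNAi, a change of -0.52 ± 0.08 (limma adjusted p = 0.00730), opposite to that of Amotl2. Of its dimmer probe sets 1 fell and 1 did not pass. Frmd6, which encodes the FERM domain protein willin, fell by 0.50 ± 0.09 (limma adjusted p = 0.0116). Llgl1, a polarity gene, fell by 0.44 ± 0.08 (limma adjusted p = 0.0118). Wtip, which encodes a LIM domain protein of the Ajuba family, fell by 0.33 ± 0.08 (limma adjusted p = 0.0354). Mpp5, whose product Pals1 belongs to the Crumbs polarity complex, fell by 0.33 ± 0.08 with its brightest probe set (limma adjusted p = 0.0337), whereas 2 dimmer ones rose (0.29 and 0.71, adjusted p = 0.0437 and 0.00872). Dlg1, another polarity gene, was not past the test with its brightest probe set but rose with 2 dimmer ones (0.58 and 0.40, limma adjusted p = 0.00476 and 0.0436), and was named after these values had been seen. Over the group, 4 of 15 dimmer probe sets rose and 1 fell.

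Of 11 measured TEAD cofactors and regulators of YAP turnover, 2 rose, 1 fell and 8 did not pass, with a median change of -0.14. Vgll3, a vestigial-like cofactor that binds TEAD factors, read 4.70 and 4.80 in control RNAi and 5.84 and 5.80 in Zfp322a RNAi, a rise of 1.07 ± 0.08 (limma adjusted p = 0.00146), and a second probe set rose by 1.03 ± 0.13 (adjusted p = 0.00465), while the third changed by 0.30 ± 0.10 (adjusted p = 0.0773). All 3 lay under the median level of all probe sets on all arrays. Strn3, a subunit of the phosphatase complex that opposes the MST kinases, rose by 0.86 ± 0.13 (limma adjusted p = 0.00676), and of its dimmer probe sets 1 rose and 1 did not pass. Csnk1e, one of the casein kinases that prime YAP for degradation, fell by 0.91 ± 0.08 (limma adjusted p = 0.00177), and by 0.46 with its second probe set (adjusted p = 0.00975), while another, dim one did not pass. Over the group, 3 of 22 dimmer probe sets rose and 1 fell.

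Of 20 other YAP target genes, 7 rose, 0 fell and 13 did not pass, with a median change of 0.11. At an unadjusted p under 0.05 in limma, 8 were higher and 0 lower. Ajuba, which encodes a LIM protein that restrains the LATS kinases, read 9.78 and 9.79 in control RNAi and 11.03 and 10.96 in Zfp322a RNAi, a rise of 1.21 ± 0.08 (limma adjusted p = 0.00108). Gadd45a, a growth arrest gene, read 9.03 and 8.80 in control RNAi and 10.24 and 10.04 in Zfp322a RNAi, a rise of 1.22 ± 0.11 (limma adjusted p = 0.00216). These rises exceeded that of Ctgf in size, but the difference was not tested. Igfbp3, which encodes a binding protein of insulin-like growth factors, rose by 0.83 ± 0.11 (limma adjusted p = 0.00506). F3, the gene of tissue factor, rose by 0.72 ± 0.15 (limma adjusted p = 0.0202). Ptpn14, which encodes a phosphatase that holds YAP in the cytoplasm, rose by 0.48 ± 0.10 (limma adjusted p = 0.0214), and of its dimmer probe sets 1 rose and 1 did not pass. Over the group, 6 of 27 dimmer probe sets rose and the rest did not pass.

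Ankrd1, Axl and Nt5e were among the other YAP target genes whose brightest probe sets did not pass. Ankrd1, a commonly used readout beside Ctgf and Cyr61, changed by 0.10 (limma adjusted p = 0.508), and Axl, a receptor tyrosine kinase, by 0.02 (adjusted p = 0.951), and both lay below the median level of all probe sets. Nt5e, which encodes the surface nucleotidase CD73, changed by -0.01 with its brightest probe set and did not pass with a second, but another probe set, 1428547_at, read 4.72 and 4.29 in control RNAi and 6.27 and 6.37 in Zfp322a RNAi, a rise of 1.81 ± 0.15 (limma adjusted p = 0.00161). Ankrd1, Axl and Nt5e were named after their values had been seen.

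**Figure D4:**
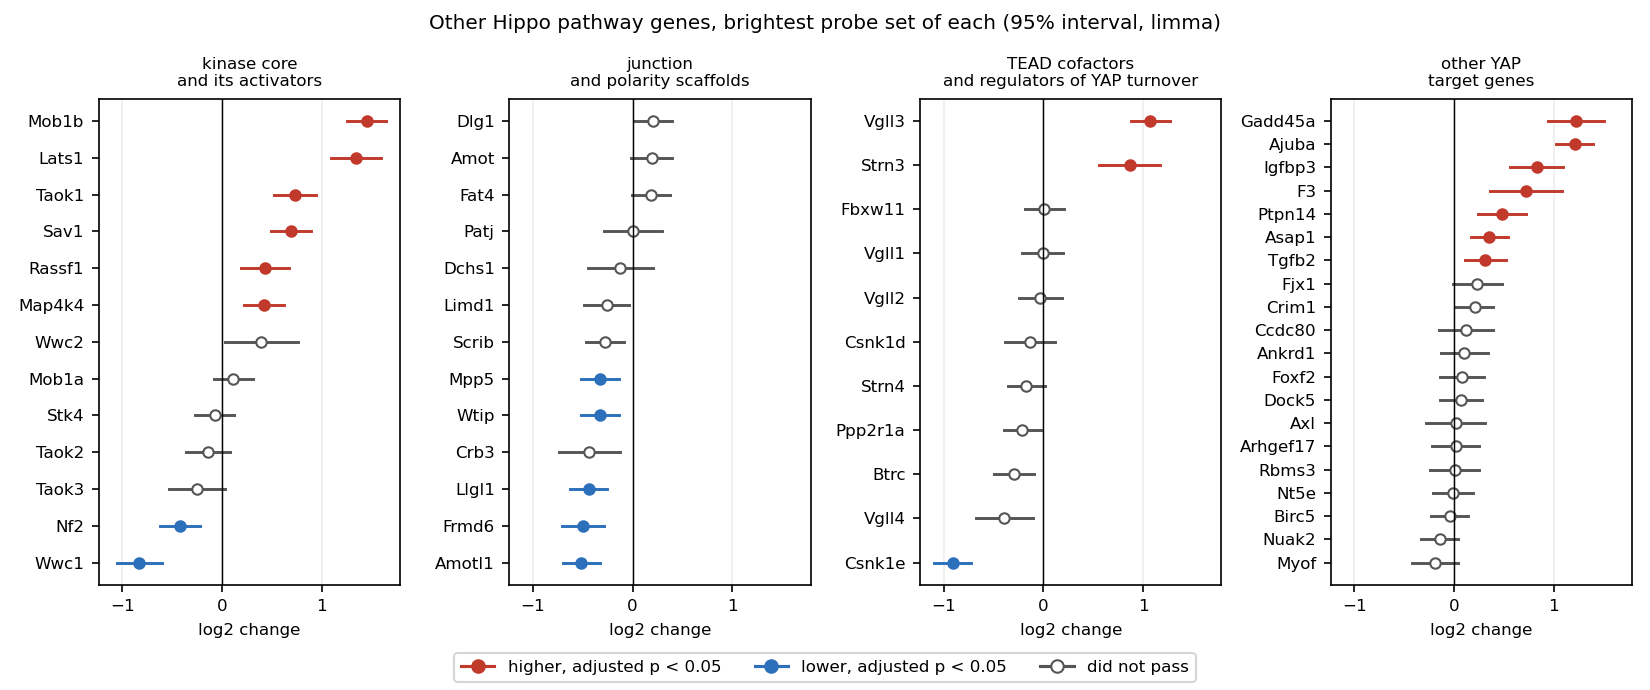
Change of the brightest probe set of each of 57 further Hippo pathway genes (y axes), as log2 Zfp322a RNAi minus control RNAi (x axes) with the 95% interval from limma as a line, in 4 panels for the kinase core, junction scaffolds, TEAD cofactors and turnover, and other YAP targets. Filled red points rose and filled blue points fell at a limma adjusted p under 0.05: 6 and 2 in the kinase core, 0 and 5 among junction scaffolds, 2 and 1 among cofactors, and 7 and 0 among YAP targets.

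Cdx2 and Gata3, the trophectoderm genes that Tead4 and YAP are known to switch on, did not move together. Cdx2 read 5.39 and 5.16 in control RNAi and 5.27 and 5.26 in Zfp322a RNAi, with overlapping groups and a change of -0.01 ± 0.10 (limma adjusted p = 0.959), and its dimmer probe set changed by -0.20 ± 0.11 (adjusted p = 0.271). Gata3 read 5.00 and 4.58 in control RNAi and 5.61 and 6.15 in Zfp322a RNAi, a rise of 1.09 ± 0.21 (limma adjusted p = 0.0165). Neither was bright, and averaged over the 4 arrays both lay under the median level of all probe sets. Of 8 trophectoderm markers, these included, 1 rose and 4 fell (Eomes, Krt7, Krt8 and Krt18), 4 lay under that median level, and their summed linear level was 2084 to 2174 in control RNAi and 1390 to 1427 in Zfp322a RNAi.

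Markers of other cells moved as well. Of 7 endoderm markers, 5 rose, 0 fell (at an unadjusted p under 0.05 in limma, 6 were higher and 0 lower) and 4 lay under the median level, and their summed linear level was 422 to 423 in control RNAi and 684 to 706 in Zfp322a RNAi. Over all genes, 12.2% were higher and 11.5% lower at an adjusted p under 0.05 in limma. Gata6, an endoderm transcription factor, rose most among the 7 markers, by 1.42 ± 0.09 (limma adjusted p = 0.00105). Its dimmer probe sets changed by 0.88 (limma adjusted p = 0.00487) and -0.24 (adjusted p = 0.0811). Of the 10 dimmer probe sets of the endoderm markers, 2 rose and 8 did not pass. Of 8 measured fibroblast and feeder cell markers, 0 rose, 1 fell (Thy1, and at an unadjusted p under 0.05 in limma no other in either direction) and 7 lay under the median level, with a sum of 367 to 370 in control RNAi and 299 to 306 in Zfp322a RNAi. The markers named beside Cdx2 and Gata3 were chosen after their values had been seen. No RMA value is 0, so that no marker can be called absent. The summed linear levels of the marker lists are led by their brightest genes and do not show that every marker moved. Gata6 was the brightest endoderm marker. Thy1 was the brightest fibroblast and feeder cell marker, with 7.12 and 7.42 in control RNAi and 6.77 and 6.65 in Zfp322a RNAi. The part of these cells in the changes of the Hippo genes was not tested. In RNA of whole cultures, more cells of a type and more RNA per cell cannot be told apart.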

How the data were processed

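Total RNA of 4 samples was hybridised to Affymetrix arrays, 1 per sample. The authors processed the arrays with RMA (background subtraction, quantile normalization between arrays and summary of the probes of each probe set), and the deposited values, log2 by their range of 2.62 to 14.6, were used unchanged. The sources used here give no version of RMA. RMA aligns the quantiles of the arrays, so a shift shared by the whole transcriptome is lost. Groups and replicate numbers came from the sample titles. The labels give 3 days of puromycin, although the study gives the array samples a longer selection.

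Gene names came from the platform annotation (1 symbol for 34945 probe sets, several for 932, none for 9160), and symbols were updated by Entrez ID through the RefSeq gene table of GRCm38.p6, which matched 34741. A linear model with the group as its term was fitted to every probe set with lmFit and moderated with eBayes (limma 3.58.1, R 4.3.3). It left 2 residual degrees of freedom. Two-sided p-values were adjusted by the Benjamini-Hochberg method over all 45037 probe sets, with a threshold of 0.05. No probe set was filtered out, and the median standard error of a change was 0.09. The number of arrays limits the precision. The procedure was tried on data simulated with limma's own model of the spread, which cannot show whether that model suits these arrays. Members and gene lists were chosen with earlier results of these data known. All members were named, with Zfp322a, up to 5 passing genes with the lowest p of each group of the wider list, Cdx2 and Gata3, and other genes where said. Promoter windows came from RefSeq (GRCm38.p6). Alternatives were array centring, renewed quantile normalization, leaving out dim or cross-hybridizing probe sets, a variance trend, a replicate block, leaving out 1 array, the brightest probe set alone, the average over a gene's probe sets and the 1.5-fold rule.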

Additional observations from a re-analysis of the deposited data

How the results depend on the processing

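The number of probe sets past the adjusted p was 9040 over all arrays and 0 without any 1 array (lowest 0, highest 0), and the counts of Hippo probe sets and of wider list genes, higher and lower, were 0 to 0 as well. The smallest limma adjusted p was then 0.110 to 0.138. In those fits the lone array of a group is assumed to vary like the other group. Deviations of same-numbered arrays correlated at 0.06, so these arrays shared little of their deviation. That value cannot tell whether samples with the same replicate number were handled as a pair. With the replicate block all 5 counts were 0, with 1 residual degree of freedom, and 13586 probe sets had an unadjusted p under 0.05.

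With only the brightest probe sets tested, 5163 passed in all and 4 Hippo genes were higher. The 1.5-fold rule gave 3294 probe sets in all, 6 Hippo probe sets higher and 1 lower, and 2 wider list genes lower. With dim probe sets left out, 4 Hippo probe sets were lower and 14 wider list genes were lower. Falls grew in number over all probe sets too in that fit, to 5155 against 4266 in the main fit, although fewer probe sets were tested. With a variance trend, 4 Hippo probe sets and 12 wider list genes were lower, while 11620 probe sets passed in all, against 9040 in the main fit. Centring the arrays, normalizing quantiles again and leaving out cross-hybridizing probe sets moved no count by over 1.5 times. No Hippo probe set that passed the test changed its direction under any alternative. The Lats2 probe set 1419679_at, which did not pass, turned from -0.08 to 0.06 without control RNAi replicate 2 and without Zfp322a RNAi replicate 1. The causes were not tested.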
